A study of Mus musculus with 64 samples.

Results

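Collagen chain genes were read across 64 mouse hearts, of which each gave 1 library. The members were all entries of the deposited table whose symbol is Col, a type number, the letter a and a chain number, which gave 43 of 30285 gene entries, and no measured value was used to choose them. By structure, 11 of them encode fibrillar chains, 9 fibril-associated chains, 6 basement membrane chains, 6 chains of beaded filaments, 4 transmembrane chains, 3 chains of hexagonal networks, 2 multiplexins and 2 other chains (Col7a1 of anchoring fibrils and Col28a1). The study crossed a cardiac deletion of Ndufs4 with pressure overload by transverse aortic constriction (TAC) and asked how the transcriptome moves from hypertrophy to failure. WTSH hearts came from wild-type (WT) mice after sham surgery, KOSH hearts from mice with the Ndufs4 deletion (KO) after sham surgery, WTTAC hearts from WT mice after TAC, and KOTAC hearts from KO mice after TAC. Each condition was sampled at weeks 1, 2, 4 and 8 after surgery, with 4 hearts in each of the 16 groups. All mice were C57BL6 males that were 3 to 4 months old at surgery, and sham mice had the same opening of the chest without the ligature. The deletion came from loxP sites in Ndufs4 and a Cre recombinase driven by the αMHC promoter, which is active in cardiomyocytes, so other cells of a KO heart still carry an intact gene. The sources used here do not say whether WT mice carried the Cre transgene.

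Collagens are secreted proteins in which each of 3 chains repeats a triplet with glycine in its first place, so that the chains wind into a triple helix. Types I and III form the fibrils that give the interstitium of the heart its tensile strength, and type V sets the width of these fibrils. Type IV forms the sheet under endothelial cells and around each cardiomyocyte, type VIII forms networks near vessels, type VI forms beaded filaments at cell surfaces, and fibril-associated chains sit on fibrils made by others. Fibroblasts are the main source of fibrillar collagen in the heart, and their deposition of it is known as fibrosis.

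The longest run of the glycine repeat sets fibrillar chains apart in the coding sequence itself, and a stretch is shown for 6 of the chains on which the results turn. Over the coding sequences of all 43 chains (GENCODE models on mm9), the longest unbroken run of triplets that start with a glycine codon held 216 to 344 triplets in fibrillar chains, 39 to 66 in basement membrane chains, 60 to 61 in network chains and 30 in both multiplexins. The other classes overlapped the basement membrane range, with 37 to 87 in beaded filament chains and 32 to 113 in fibril-associated chains. Transmembrane chains had 40 to 56 and the 2 other chains 28 to 75. A basement membrane chain broke its repeat into 22 to 27 runs of 5 or more triplets, and a fibrillar chain had 2 or 3. Each stretch below is the coding strand, 5′ to 3′, in capitals where a codon is a glycine codon. It holds the last 8 triplets of the longest run and the 9 codons after it, so that the rhythm of capitals breaks at the end of that run. In Col8a1 the capitals then go on at the same spacing, shifted in phase. The genes lie on mm9 at chr11:94797538-94814356 (Col1a1, plus strand, codons 1158 to 1190), chr1:45368383-45406551 (Col3a1, plus, codons 1172 to 1204), chr1:45431166-45560127 (Col5a2, minus, codons 1204 to 1236), chr8:11198423-11312826 (Col4a1, minus, codons 139 to 171), chr8:11312805-11449287 (Col4a2, plus, codons 951 to 983) and chr16:57624371-57754850 (Col8a1, minus, codons 511 to 543).
Col1a1: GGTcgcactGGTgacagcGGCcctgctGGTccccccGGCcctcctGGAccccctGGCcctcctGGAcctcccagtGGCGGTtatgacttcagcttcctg
Col3a1: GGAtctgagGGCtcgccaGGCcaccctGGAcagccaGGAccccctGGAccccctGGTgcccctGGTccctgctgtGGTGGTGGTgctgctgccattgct
Col5a2: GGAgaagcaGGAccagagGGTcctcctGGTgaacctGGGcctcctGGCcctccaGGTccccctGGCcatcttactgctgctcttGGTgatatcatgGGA
Col4a1: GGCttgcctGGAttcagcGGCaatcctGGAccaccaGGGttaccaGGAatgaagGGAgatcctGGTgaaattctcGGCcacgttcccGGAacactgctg
Col4a2: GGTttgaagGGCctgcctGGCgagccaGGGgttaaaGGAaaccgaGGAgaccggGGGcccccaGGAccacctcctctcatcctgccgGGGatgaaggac
Col8a1: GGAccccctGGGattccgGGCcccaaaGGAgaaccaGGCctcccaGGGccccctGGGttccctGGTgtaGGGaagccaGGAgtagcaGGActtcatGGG
In Col1a1, Col3a1 and Col5a2 the end of the run is the end of the main helix. Col4a1, Col4a2 and Col8a1 instead divide their repeat into 22, 24 and 9 runs of 5 or more triplets, of which only the longest is cut out here. Col3a1 and Col5a2 are neighbours on chromosome 1 and are read from opposite strands. Col4a1 and Col4a2 lie head to head and their annotated spans overlap at the start sites, and Col18a1 and Col10a1 overlap a gene on the other strand (Slc19a1 and Nt5dc1). Models without a gene name lie opposite others, among them Col1a1, Col5a1 and Col15a1. The kit did not mark strand, so reads from the overlapping parts cannot be told apart.

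Values are FPKM, fragments scaled to the length of the transcript and the size of the library, as deposited, and levels are therefore compared between genes per length. FPKM keep no read counts, so the depth of a library is unknown. From 11689 to 13101 genes per library were at an FPKM of 1 or more. Ndufs4 had an FPKM of 20.3 to 43.8 in the 32 KO hearts and 59.0 to 188 in the 32 WT hearts, which do not overlap. Differences were tested as log2(FPKM + 1) with limma for the 13653 genes that reached an FPKM of 1 in 4 or more libraries. Each difference below is on this scale with its standard error (SE), understates the change of low genes, and counts as passing the test at an adjusted p (Benjamini-Hochberg over all 13653 genes) under 0.05. In 4 week 2 libraries (replicates 3 and 4 of WTTAC and of KOTAC), log2(FPKM + 1) fell with gene length, with slopes of -0.143 to -0.117 per doubling against -0.0562 to 0.0701 in the other 60. The limma tests of the chains, the ratios over 4 weeks and those of Col1a1 to Col4a1 and Col15a1 were also computed without them. The sums, shares, marker counts and counts of hearts without overlap use all hearts. Heart tissue holds several cell types, so more cells of a type and more RNA per cell cannot be told apart here.

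Of the 43 chains, 25 had a mean FPKM of 1 or more in at least 1 group and 26 were tested. Of these 26, 17 met the filter in sham hearts alone. The other 9 (Col4a3, Col4a4, Col6a6, Col8a2, Col9a2, Col11a1, Col12a1, Col22a1 and Col27a1) met it only when TAC hearts were counted, so that those of them which are high after TAC had to differ. The main limma counts for TAC and for its change between weeks are given for the 17 as well, and other counts for the 26 only. The 17 chains left untested (Col2a1, Col4a6, Col6a4, Col6a5, Col7a1, Col9a1, Col9a3, Col10a1, Col11a2, Col13a1, Col17a1, Col19a1, Col20a1, Col23a1, Col24a1, Col25a1 and Col28a1) had no group mean above 0.797. The 2 highest transmembrane chains reached a single-heart FPKM of 1.37 (Col13a1) and 0.669 (Col23a1), and Col7a1 and Col28a1 reached 0.997 and 0.870.

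In WTSH hearts the basement membrane chains led. Col4a1 had the highest level, with a lowest, median and highest FPKM of 33.5, 48.0 and 69.7 over 16 hearts, and its partner Col4a2 had 28.0, 37.2 and 51.7. Col3a1 (16.4, 26.9 and 44.4), Col15a1 (10.9, 19.5 and 24.9), Col1a2 (14.5, 18.8 and 28.4) and Col1a1 (10.3, 14.3 and 23.98) followed, with ranges that overlap among these 4, and Col6a1 and Col6a2 were close to Col1a1 with medians of 14.7 each. In WTTAC hearts at week 1 the order had turned over. Col3a1 then led at 595 ± 263 (SD, n = 4), and Col1a2 at 436 ± 231 and Col1a1 at 412 ± 238 came next, within their spread of each other. Below them came Col4a1 at 234 ± 47.6 and then Col4a2 at 149 ± 23.9 (SD, n = 4).

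**Figure D1:**
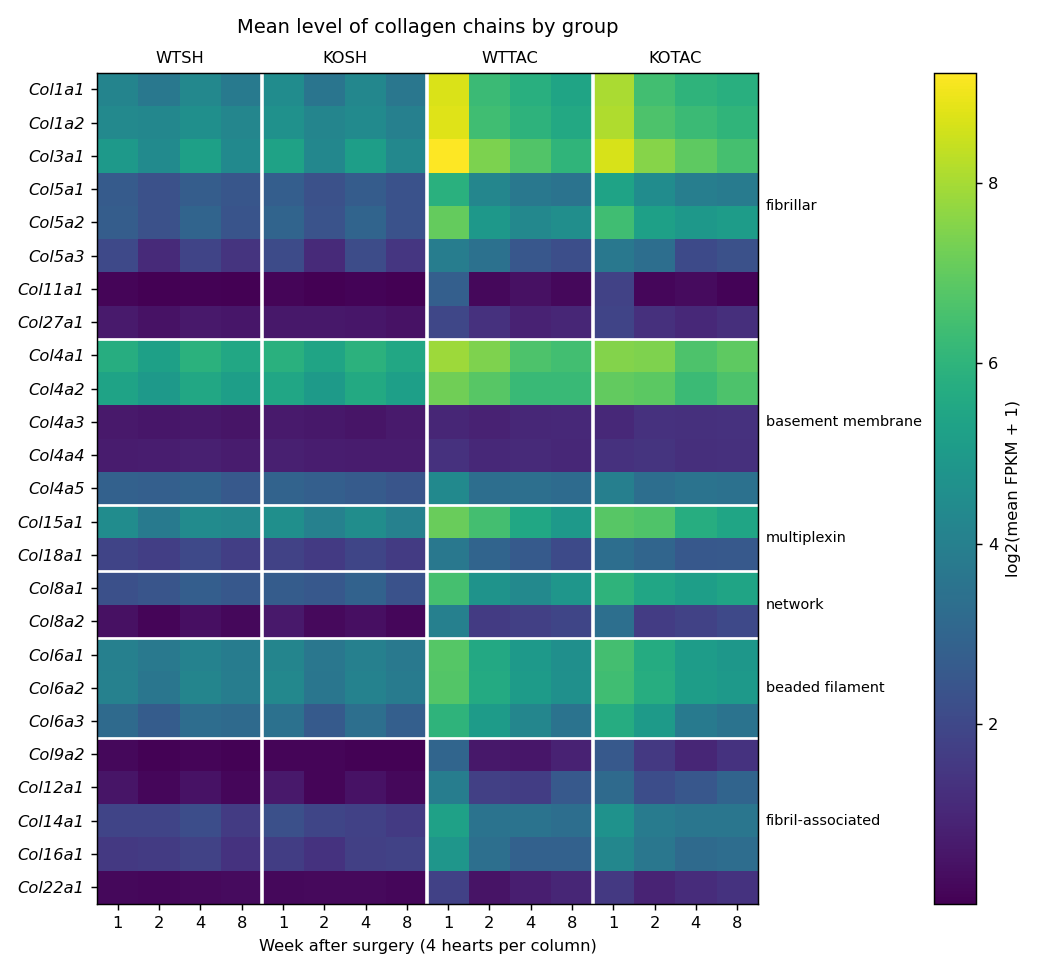
Mean FPKM of the 25 chains with a group mean of at least 1 (one line per chain, by structural class) in each of the 16 groups (columns, by condition and week, 4 hearts each), shown as log2(mean FPKM + 1), with brighter colours for higher levels. The WTTAC and KOTAC columns of week 1 are the brightest for the fibrillar chains, with Col3a1 at 595 in WTTAC hearts, while in sham columns Col4a1 and Col4a2 are the brightest.

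Pressure overload went with higher levels in the 6 classes that had a chain tested, and no transmembrane chain, Col7a1 or Col28a1 was tested. In a limma run without the filter, averaged over weeks, Col28a1 was higher by 0.24 in WT and 0.27 in KO hearts (adjusted p = 7.1e-06 and 7.9e-07). Col7a1 differed by 0.19 and 0.09 (limma adjusted p = 0.0013 and 0.12) and Col13a1 by 0.08 and 0.17 (adjusted p = 0.33 and 0.026). Col17a1, Col23a1 and Col25a1 passed in neither genotype. Averaged over the 4 weeks, 25 of the 26 chains tested rose in WTTAC vs. WTSH and Col6a6 fell, and the same held in KOTAC vs. KOSH. Of all genes tested, 59.9% passed in the WT comparison (48.2% higher and 11.7% lower) and 62.0% in the KO comparison (48.0% higher and 14.0% lower). Of the 17 chains that met the filter in sham hearts, 17 rose in each genotype, by a median of 1.64 in WT and 1.86 in KO hearts, against a median of 0.14 and 0.13 over all genes tested. Under median-of-ratios scaling the median of all genes moved to -0.0024 in WT and -0.0025 in KO hearts. The genes called then split as 3825 higher and 3836 lower in WT hearts, in place of 6574 and 1599, and as 4035 and 4083 in KO hearts, in place of 6547 and 1915. Under quantile normalization they split as 3454 and 4283 in WT and 3646 and 4580 in KO hearts. The 26 chains kept their direction under both.

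The fibrillar chains are given first, beginning with type I. Col1a1, the main chain of type I collagen, had a lowest, median and highest FPKM of 10.3, 14.3 and 23.98 in WTSH, 16.7, 59.8 and 628 in WTTAC, 8.09, 14.4 and 27.1 in KOSH, and 38.0, 78.4 and 449.6 in KOTAC hearts. All 16 KOTAC hearts lay above all KOSH hearts, and 13 of 16 WTTAC hearts lay above all WTSH hearts. The 3 WTTAC hearts inside the sham range were replicate 3 of week 2 (16.7), replicate 2 of week 4 (20.6) and replicate 2 of week 8 (17.5). The heart of week 2 is among the 4 libraries with a length trend. The difference was 2.32 (SE 0.22, limma adjusted p = 1.4e-12) in WT and 2.53 (SE 0.22, adjusted p = 4.9e-14) in KO hearts. Col1a2, the second chain of type I, went from 14.5, 18.8 and 28.4 in WTSH to 18.6, 61.7 and 621 in WTTAC, and from 13.7, 18.6 and 28.9 in KOSH to 46.5, 92.7 and 472 in KOTAC hearts. The same 3 WTTAC hearts and no KOTAC heart lay inside the sham range. Its difference was 2.09 in WT and 2.38 in KO hearts (SE 0.20 each, limma).

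Col3a1, the single chain of type III, had FPKM of 16.4, 26.9 and 44.4 (lowest, median, highest) in WTSH, 28.6, 124 and 857 in WTTAC, 11.9, 23.8 and 50.3 in KOSH, and 61.7, 165 and 612 in KOTAC hearts. Again 3 of 16 WTTAC hearts and none of the KOTAC hearts fell inside the sham range. It rose by 2.35 in WT and 2.61 in KO hearts (SE 0.22 each, limma adjusted p = 1.4e-12 and 2.4e-14). Col5a2, a type V chain, had 3.497, 4.75 and 7.85 in WTSH, 7.71, 26.2 and 183 in WTTAC, 3.43, 4.77 and 10.9 in KOSH, and 18.8, 37.3 and 147 in KOTAC hearts. Replicate 2 of WTTAC week 4 (7.71) was the single TAC heart inside the sham range of its genotype. Col5a2 rose by 2.44 in WT and 2.69 in KO hearts (SE 0.19 each, limma adjusted p = 1.3e-14 and 1.5e-16).

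The other type V chains rose less. Col5a1 went from a median of 4.67 (3.54 to 7.11) in WTSH to 14.8 (4.73 to 80.4) in WTTAC, and from 4.67 (2.78 to 7.35) in KOSH to 18.9 (9.13 to 60.6) in KOTAC hearts, and rose by 1.68 and 1.86 (SE 0.15 each). Its KO groups did not overlap and its WT groups overlapped in 3 hearts. Col5a3 went from a median of 1.87 to 6.80 in WT and from 2.02 to 6.17 in KO hearts, and rose by 1.38 and 1.17 (SE 0.12 each). It overlapped more, with 4 WTTAC and 7 KOTAC hearts of weeks 4 and 8 inside the sham range.

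Col4a1 and Col4a2, the main basement membrane chains, had higher sham medians than any fibrillar chain, and their differences were smaller than those of Col1a1, Col1a2 and Col3a1, which was not tested. Col4a1 had a lowest, median and highest FPKM of 33.5, 48.0 and 69.7 in WTSH, 66, 128 and 286 in WTTAC, 32.3, 49.1 and 88.3 in KOSH, and 67.9, 129 and 244 in KOTAC hearts. In each genotype 14 of 16 TAC hearts lay above all sham hearts, and the exceptions were of weeks 4 and 8. It rose by 1.46 in WT and 1.45 in KO hearts (SE 0.12 each, limma adjusted p = 8.9e-14 and 3.0e-14). Col4a2 went from 28.0, 37.2 and 51.7 in WTSH to 50.8, 96.2 and 173 in WTTAC, and from 25.8, 38.6 and 73.9 in KOSH to 51.6, 102 and 164 in KOTAC hearts, with 1 WTTAC and 2 KOTAC hearts inside the sham range. It rose by 1.35 and 1.37 (SE 0.11 each). Col4a5, which with Col4a3 and Col4a4 makes a second type IV network, rose by 0.76 and 0.84 (SE 0.09 each) from a median of 5.96 in WTSH and 5.46 in KOSH hearts. Col4a3 and Col4a4 were near the filter in all conditions (medians 0.484 and 0.641 in WTSH, 0.974 and 1.21 in WTTAC, 1.30 and 1.44 in KOTAC hearts). Their differences were 0.41 and 0.39 in WT and 0.62 and 0.56 in KO hearts.

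Col8a1, the network chain of vessel walls, was the chain with the largest moderated t in both genotypes. It had a lowest, median and highest FPKM of 2.92, 4.75 and 6.52 in WTSH, 5.39 (replicate 3 of week 2), 29.3 and 117 in WTTAC, 3.10, 4.85 and 12.1 in KOSH, and 20.3, 45.5 and 101.3 in KOTAC hearts. That WTTAC heart was inside the sham range, and every other TAC heart was above the sham hearts of its genotype. Col8a1 rose by 2.47 (SE 0.18, limma adjusted p = 2.6e-15) in WT and by 2.85 (SE 0.18, adjusted p = 6.5e-18) in KO hearts. Its partner Col8a2 was low in sham hearts, with 0.0668, 0.145 and 0.645 in WTSH and 0.0571, 0.230 and 0.752 in KOSH, against 0.0817, 2.13 and 24.9 in WTTAC and 0.609, 2.61 and 18.5 in KOTAC hearts. Its WTTAC hearts spread from sham levels (5 of 16 inside the sham range) to far above. The difference was 1.63 and 1.74 (SE 0.27 each).

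**Figure D2:**
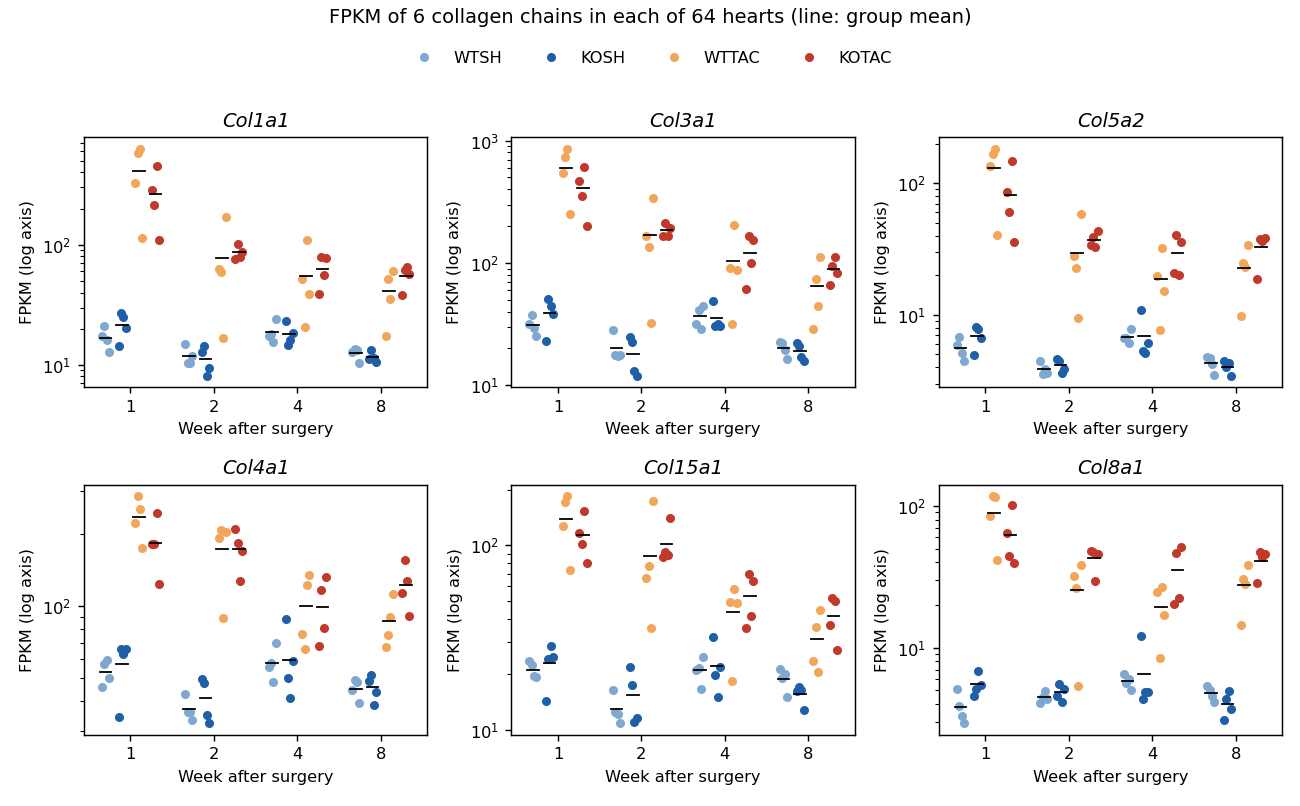
FPKM of 6 chains in each of the 64 hearts (1 point per heart, log axis), by condition and week, with a line at the mean of the 4 hearts of a group. The highest heart of each of the 6 chains is a WTTAC heart of week 1, and single WTTAC hearts of weeks 2, 4 and 8 sit at sham levels, such as replicate 2 of week 4 with a Col1a1 of 20.6.

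Among the fibril-associated chains, Col14a1, which binds the surface of fibrils, had a lowest, median and highest FPKM of 1.53, 2.74 and 4.15 in WTSH, 2.61, 12.5 and 51.5 in WTTAC, 1.16, 2.72 and 4.65 in KOSH, and 5.75, 12.4 and 42.0 in KOTAC hearts. The KO groups did not overlap, and 3 WTTAC hearts were inside the sham range. It rose by 1.78 in WT and 2.01 in KO hearts (SE 0.20 each, limma). Col16a1 had 1.23, 1.84 and 3.19 in WTSH, 2.06, 7.98 and 36.6 in WTTAC, 1.44, 2.19 and 3.34 in KOSH, and 5.11, 9.76 and 25.6 in KOTAC hearts. The overlap was the same, with 3 WTTAC hearts and no KOTAC heart. It rose by 1.74 and 1.89 (SE 0.18 each). Col12a1, a close relative of Col14a1, was below 1 in all 32 sham hearts (highest 0.762) and had medians of 3.26 in WTTAC and 4.82 in KOTAC hearts, with differences of 1.89 and 2.27 (SE 0.22 each).

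Beaded filament chains moved as a block of 3 with 1 exception. Col6a1, Col6a2 and Col6a3 assemble into the type VI monomer. Col6a1 had FPKM of 10.8, 14.7 and 20.7 (lowest, median, highest) in WTSH, 15.9, 35.8 and 147 in WTTAC, 9.30, 13.2 and 20.7 in KOSH, and 20.1, 43.2 and 125 in KOTAC hearts. Col6a2 stood close to it in each condition, with 10.3, 14.7 and 19.8 in WTSH, 17.2, 37.6 and 137 in WTTAC, 9.45, 13.4 and 22.1 in KOSH, and 19.8, 44.3 and 115 in KOTAC hearts. For both, 4 WTTAC hearts and 1 KOTAC heart were inside the sham range. Col6a1 rose by 1.46 and 1.61, Col6a2 by 1.47 and 1.58 (SE 0.14 each) and Col6a3 by 1.501 and 1.46 (SE 0.18 each) in WT and KO hearts.

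The exception was Col6a6, a relative of Col6a3. Of the 26 chains tested it alone was lower after TAC, at medians of 0.734 in WTSH and 0.664 in KOSH against 0.284 in WTTAC and 0.150 in KOTAC hearts. At week 8 its 4 hearts were at 0.592, 0.625, 0.728 and 0.815 in WTSH and at 0.0411, 0.0734, 0.144 and 0.255 in WTTAC. In KO hearts of that week they were at 0.475, 0.560, 0.658 and 0.686 after sham surgery and at 0.0284, 0.0371, 0.0412 and 0.116 after TAC. The groups did not overlap in either genotype. Averaged over weeks it fell by 0.34 in WT and by 0.46 in KO hearts (SE 0.05 each, limma adjusted p = 1.5e-07 and 8.3e-11). At week 1 the WT difference was 0.04 (SE 0.10, adjusted p = 0.77).

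Both multiplexins, basement membrane collagens with interrupted helices, rose. Col15a1 had a lowest, median and highest FPKM of 10.9, 19.5 and 24.9 in WTSH, 18.3, 53.8 and 184 in WTTAC, 11, 17.3 and 31.7 in KOSH, and 27.2, 75.0 and 154 in KOTAC hearts. The overlap was 3 WTTAC hearts and 1 KOTAC heart, all of weeks 4 and 8. It rose by 1.64 and 1.86 (SE 0.16 each, limma). Col18a1, whose end is cleaved to endostatin, had 1.79, 2.54 and 3.70 in WTSH, 2.25, 5.52 and 15.4 in WTTAC, 1.70, 2.35 and 3.38 in KOSH, and 3.09, 6.22 and 10.6 in KOTAC hearts. It overlapped in 4 WTTAC hearts and 1 KOTAC heart, and rose by 0.96 and 1.13 (SE 0.09 each).

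The remaining chains are known from cartilage and tissue junctions and were near the limit of the table in sham hearts. Col11a1, a fibrillar chain of cartilage, was listed at 0 in 5 WTSH and 3 KOSH hearts and was at most 0.224 in the other sham hearts. After TAC it was high in week 1 hearts, at 0.192, 3.63, 6.10 and 13.9 in WTTAC and 0.334, 1.398, 2.91 and 5.36 in KOTAC, and at most 0.927 at later weeks. The week 1 hearts thus spread over a wide range, with WTTAC replicate 5 (0.192) inside the sham range. Col9a2 was also highest at week 1, at 1.47, 6.15, 7.39 and 13.4 in WTTAC and 2.23, 3.55, 3.73 and 10.6 in KOTAC hearts of week 1 against at most 0.218 in any sham heart. It stayed above all KOSH hearts in each of the 16 KOTAC hearts, with means of 1.87, 1.01 and 1.57 at weeks 2, 4 and 8, whereas 7 KOTAC hearts were in the KOSH range for Col11a1. The differences averaged over weeks were 0.71 and 0.46 for Col11a1, 1.06 and 1.46 for Col9a2, 0.68 and 0.97 for Col22a1 and 0.64 and 0.78 for Col27a1 in WT and KO hearts. The call of Col11a1 in KO hearts was lost when the length trend of each library was removed (difference 0.35, limma adjusted p = 0.056). Of 5 markers of cartilage and tendon tested, 4 were higher in each genotype, where 48.2% (WT) and 48.0% (KO) of all genes were higher. Of the 9 genes listed, 1 had a median FPKM of at least 1 in WTSH and 3 in WTTAC hearts. Some may thus have met the filter only through TAC hearts. At week 1, 4 were higher in WT (51.2% of all genes), and 2 higher and 1 lower in KO hearts (31.9% and 5.01%). None passed for the change from week 1 to week 2, where 32.5% of all genes did. The summed FPKM of the 9 genes had a median of 3.90 (2.25 to 16.9) in WTSH and 47.8 (5.27 to 126) in WTTAC hearts. The part of such cells in these values was not tested.

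The deletion of Ndufs4 made no detectable difference to the chains in sham hearts. In KOSH vs. WTSH no chain passed the limma test and none was at an unadjusted p under 0.05, where 0.0513% of all genes passed (7 genes, 0.0293% higher and 0.0220% lower, with 631 at an unadjusted p under 0.05). Differences ranged from -0.11 (Col18a1) to 0.10 (Col8a1), and the 95% interval ran from -0.41 to 0.45 for Col1a1 and from -0.19 to 0.30 for Col4a1. These intervals leave room for differences that the spread between hearts would hide.

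In TAC hearts, too, no chain passed between genotypes, with 0.820% of all genes passing in KOTAC vs. WTTAC (0.110% higher and 0.710% lower). Of the 26 chains 22 had a positive difference, 5 were at an unadjusted p under 0.05 by limma (1821 of all genes), and the smallest adjusted p was 0.064. Col8a1 was 0.48 higher (95% interval 0.11 to 0.84, adjusted p = 0.20), Col9a2 0.38 (0.10 to 0.67, adjusted p = 0.19), Col4a3 0.24 (0.10 to 0.38, adjusted p = 0.073) and Col4a4 0.18 (0.04 to 0.31, adjusted p = 0.19), and Col6a6 differed by -0.18 (-0.29 to -0.08, adjusted p = 0.064). Under some alternatives Col6a6, Col4a3 or Col4a4 passed, so that their side of the threshold depends on the processing. For Col1a1 the difference was 0.23 (-0.20 to 0.66). The interaction, which asks whether the TAC effect itself differed between genotypes, was passed by no chain and by 0% of all genes (312 at an unadjusted p under 0.05 by limma, 1 of them a chain, Col4a3). Its estimate for Col8a1 was 0.38 (-0.13 to 0.89), for Col3a1 0.27 (-0.35 to 0.89) and for Col4a1 -0.01 (-0.35 to 0.34).

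**Figure D3:**
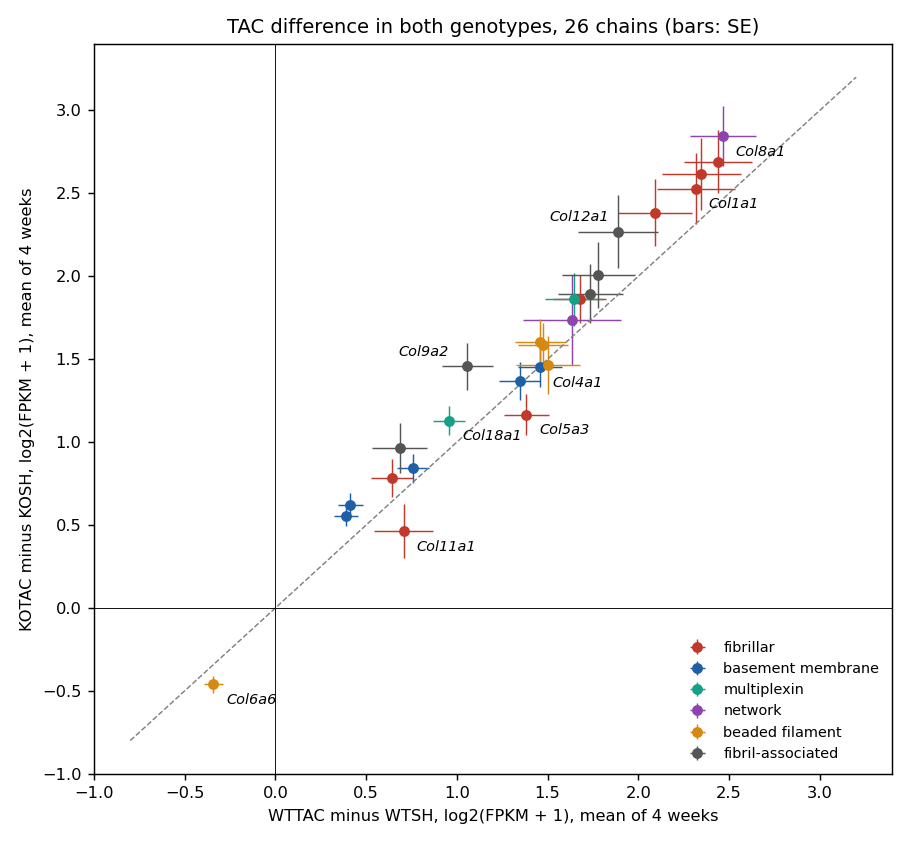
Difference between TAC and sham hearts, mean of the 4 weeks on the log2(FPKM + 1) scale, in WT (x axis) and KO hearts (y axis) for the 26 chains tested, with bars of 1 SE and a dashed line of equality. Most chains lie on or a little above the line, Col8a1 at 2.47 and 2.85, and Col6a6 alone lies below 0 in both.

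The difference was largest at week 1 for 22 of 26 chains in WT and 15 of 26 in KO hearts. It was largest at week 2 for 2 and 9, among them Col4a1 and Col5a3 in both genotypes. The same count was not made for all genes. The median difference of all genes tested was 0.31, 0.17, 0.015 and 0.046 in WT hearts at weeks 1, 2, 4 and 8. In KO hearts it was 0.18, 0.046, 0.097 and 0.21. In WT hearts 25 of 26 chains rose at week 1, where 56.0% of all genes were called (51.2% higher, 4.83% lower). At week 2, 20 rose and Col6a6 fell, where 46.4% were called (35.8% higher, 10.5% lower). At week 4 no chain passed, where 0.212% were called (0.0439% higher, 0.168% lower), and at week 8, 14 rose and Col6a6 fell, where 16.4% were called (10.3% higher, 6.12% lower). In KO hearts 25 of 26 rose at week 1, where 36.9% of all genes were called (31.9% higher, 5.01% lower). At week 2, 23 rose and Col6a6 fell, where 42.4% were called (24.6% higher, 17.9% lower). At week 4, 19 rose and Col6a6 fell, where 10.4% were called (8.27% higher, 2.13% lower), and at week 8, 23 rose and Col6a6 fell, where 40.2% were called (34.6% higher, 5.54% lower). Of the 17 chains that met the filter in sham hearts, 17, 17, 0 and 12 rose in WT and 17, 17, 14 and 16 in KO hearts at weeks 1, 2, 4 and 8.

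At week 1 the 4 Col1a1 values were 12.8, 16.0, 17.5 and 20.98 in WTSH and 113, 329, 577 and 628 in WTTAC hearts. In KO hearts they were 14.3, 20.2, 24.8 and 27.1 after sham surgery and 109.1, 212.5, 284 and 449.6 after TAC. The lowest TAC heart was thus far above the highest sham heart in both genotypes. The differences were 4.28 (SE 0.43) in WT and 3.41 (SE 0.43) in KO hearts. The 5 largest moderated t of this week were those of Col8a1 (4.15), Col5a2 (4.14), Col5a1 (3.11), Col1a2 (4.22) and Col18a1 (1.80) in WT hearts. In KO hearts they were those of Col8a1 (3.19), Col18a1 (1.52), Col5a1 (2.54), Col5a2 (3.24) and Col1a2 (3.29). Col4a3, at 0.34 and 0.38, lost its week 1 call under median-of-ratios scaling, quantile normalization or removal of the length trend.

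At week 2 the order of the chains was not that of week 1, though Col18a1 stayed among the first 5. Col5a3 (2.32 in WT, 2.24 in KO hearts), Col4a1 (2.11 and 2.04), Col4a2 (1.78 and 1.86), Col15a1 (2.45 and 2.66) and Col18a1 (1.19 and 1.43) had the largest moderated t in both genotypes. The 4 Col4a1 values of this week were 33.5, 36.0, 36.2 and 43.01 in WTSH and 88.6, 191, 203 and 206 in WTTAC hearts. They were 32.3, 35.2, 47.8 and 49.6 in KOSH and 127, 169, 184 and 209 in KOTAC hearts. No TAC heart came near a sham heart, including replicate 3 of WTTAC (88.6), whose Col1a1 of 16.7 was close to the sham values of 10.4 to 15.0. That replicate is among the 4 libraries with a length trend.

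At week 8 the largest moderated t among the chains that rose were those of Col8a1 (2.25 in WT, 3.06 in KO hearts), Col5a2 (2.05 and 2.70), Col12a1 (2.07 and 2.60) and Col4a2 (1.05 and 1.43). The 4 Col8a1 values were 4.14, 4.57, 5.004 and 5.34 in WTSH and 14.4, 28.2, 30.5 and 38.0 in WTTAC hearts, without overlap. In KO hearts they were 3.10, 3.70, 4.33 and 4.98 after sham surgery and 28.7, 43.4, 45.5 and 46.9 after TAC. The WT count of 15 chains, Col6a6 included, fell to 9 without replicate 7 of WTTAC and was up to 19 without another single heart.

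The absence of calls at week 4 in WT hearts was sensitive to which hearts were counted. The 4 WTTAC hearts had Col1a1 values of 20.6, 39.1, 51.5 and 109.6 against 15.5, 17.3, 17.95 and 23.98 in WTSH, and Col8a1 values of 8.49, 17.1, 24.6 and 26.8 against 4.995, 5.59, 6.02 and 6.52. Replicate 2 was the lowest for both and lay inside the sham range for Col1a1 and just above it for Col8a1. Without that heart 14 of 26 chains passed the limma test, with 2.60% of all genes passing, and Col8a1 went from 1.47 (SE 0.36, adjusted p = 0.051) to 1.79 (adjusted p = 0.0054). Among the 14 were Col4a3 and Col6a6, of the 9 chains that met the filter only with TAC hearts counted. The heart left out was the lowest of its group for both chains above, and no other single omission gave more than 14 calls. The 14 thus show how the count depends on this heart and are not a separate test. With all hearts, 21 chains were at an unadjusted p under 0.05 (1561 of all genes), and 25 of 26 differences were above 0. The KO count of week 4, 20 chains with Col6a6, fell to 11 without replicate 2 or replicate 5 of KOTAC and to 13 without replicate 3 of KOSH. Col8a1 (2.25), Col5a2 (1.94), Col4a3 (0.71), Col4a5 (0.84) and, downward, Col6a6 (-0.48) had the largest moderated t in KO hearts.

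A count that does not use the model gave a similar course. All 4 TAC hearts lay above all 4 sham hearts for 22, 17, 6 and 16 of the 26 chains in WT hearts at weeks 1, 2, 4 and 8, where the share of all genes was 45.5%, 25.8%, 3.22% and 14.0%. In KO hearts they did so for 25, 23, 18 and 21 chains, where it was 30.6%, 20.3%, 12.0% and 35.4%. These counts include the 9 chains that met the filter only with TAC hearts counted, for which such a result is favoured by the filter. Among the 6 of WT week 4 these were Col4a3, Col9a2 and Col12a1.

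The change of the TAC effect from 1 week to the next was tested chain by chain, and no test compared the classes. Over both genotypes, the TAC effect of 14 of 26 chains was lower at week 2 than at week 1 (32.5% of all genes called, 27.6% lower and 4.97% higher), and that of 11 was lower at week 4 than at week 2 (22.7% called, 14.6% lower and 8.07% higher). Of the 17 that met the filter in sham hearts, these were 8 and 11. From week 1 to week 2 the largest moderated t were those of Col9a2 (-1.48, SE 0.28), Col11a1 (-1.66, SE 0.33), Col1a2 (-1.68, SE 0.40), Col4a5 (-0.73, SE 0.18) and Col6a6 (-0.40, SE 0.10). Col1a1 (-1.32), Col8a1 (-1.23), Col14a1 (-1.24) and Col5a2 (-1.05) also passed, whereas Col4a1 differed by 0.19 (SE 0.24, limma adjusted p = 0.56), Col4a2 by 0.13, Col15a1 by 0.14 and Col5a3 by 0.58 (adjusted p = 0.064). The count of 14 fell to 8 without replicate 3 of WTTAC week 2, and to 5 lower and 2 higher when the length trend of each library was removed. Col1a2, Col9a2 and Col11a1 passed under each alternative run, except that Col11a1 was not tested with a filter at an FPKM of 5. Of these, Col9a2 and Col11a1 met the filter only with TAC hearts counted. Col11a1 reached an FPKM of 1 in 6 hearts, all TAC hearts of week 1, so a lower effect at week 2 was favoured by the filter. From week 2 to week 4 the largest moderated t were those of Col5a3 (-2.0, SE 0.25), Col4a1 (-1.34, SE 0.24), Col4a2 (-1.14, SE 0.23), Col15a1 (-1.49, SE 0.32) and Col6a3 (-1.57, SE 0.35). Here Col1a1 (-1.04), Col1a2 (-0.60), Col8a1 (-0.58) and Col14a1 (-0.10) did not pass. From week 4 to week 8 no chain passed by limma (4 at an unadjusted p under 0.05, 1749 of all genes), where 0.359% of all genes did (0.330% higher, 0.0293% lower).

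**Figure D4:**
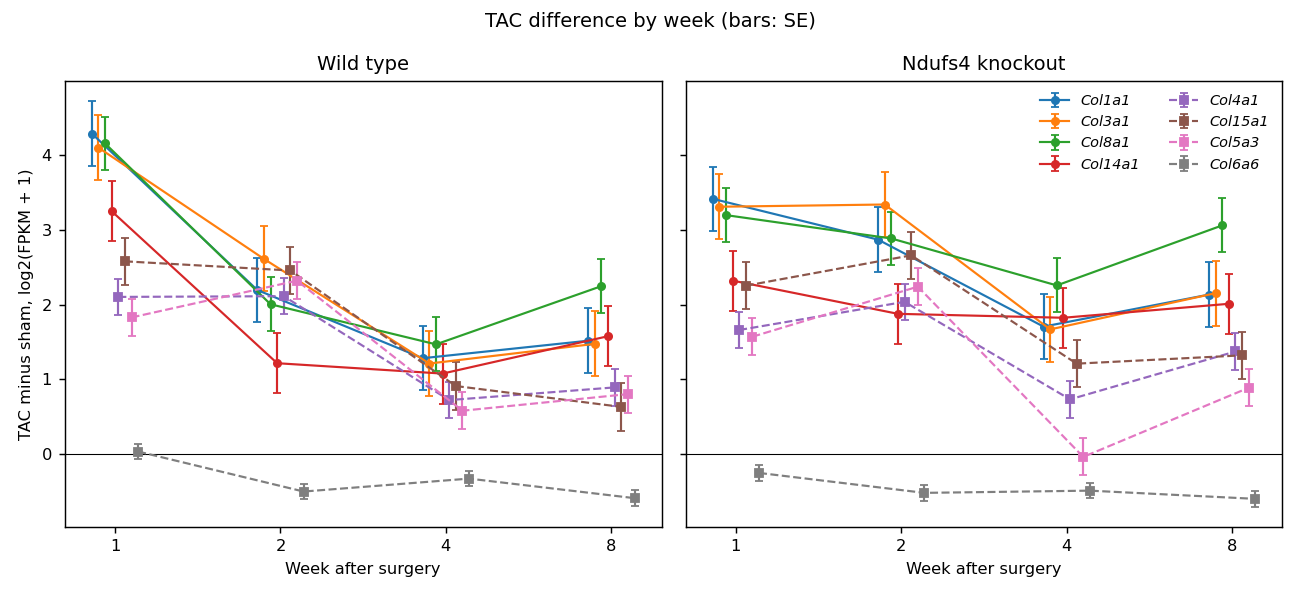
Difference between TAC and sham hearts on the log2(FPKM + 1) scale at weeks 1, 2, 4 and 8 for 8 chains, in WT and KO hearts, with bars of 1 SE (4 hearts per group). Col1a1 drops from 4.28 to 2.19 between weeks 1 and 2 in WT hearts, while Col4a1 stays at 2.10 and 2.11 and drops to 0.72 at week 4.

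A ratio within each heart does not depend on how a library was scaled. Col1a1 was set against Col4a1 and Col15a1 because of the values above, so the ratios are a description and carry no test. The log2 ratio of Col1a1 to Col4a1 in TAC hearts, less the mean of the sham hearts of that genotype and week, was 2.02 ± 0.68 (SD, n = 8, range 1.05 to 2.98) at week 1 and 0.53 ± 0.76 (SD, n = 8, range -0.76 to 1.41) at week 2. The means differed by -1.49, and by -1.67 without the 4 week 2 libraries with a length trend. For Col1a1 to Col15a1 the ratio was 1.45 ± 0.56 at week 1 and -0.01 ± 0.47 at week 2 (SD, n = 8 each), a difference of -1.46, or -1.28 without those libraries. At weeks 4 and 8 the means were 0.80 and 0.76 for the first ratio and 0.45 and 0.89 for the second. Endothelial markers moved alongside. Of 11, 10 had a higher TAC effect at week 2 than at week 1 (median 0.54), where 4.97% of all genes did. At week 4 against week 2, 11 had a lower one (median -0.74), where 14.6% of all genes did. Both counts come from all hearts, including the 4 week 2 libraries with a length trend. The part of endothelial cells in the course of Col4a1 and Col15a1 was not tested.

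The make-up of the collagen message moved with it. The FPKM of the 43 chains summed to 258, 191.7, 287 and 216.5 in WTSH hearts at weeks 1, 2, 4 and 8, and to 2688, 959, 618 and 510.2 in WTTAC hearts. In KO hearts the sums were 297.7, 194.9, 285 and 204 after sham surgery and 1890, 1062, 700.6 and 688 after TAC. Fibrillar chains were 31.6% ± 2.6 of the sum in WTSH and 59.2% ± 7.9 in WTTAC hearts of week 1, and basement membrane chains were 39.4% ± 4.6 and 17.0% ± 6.3 (SD, n = 4 each). The 4 WTTAC hearts ranged from 47.7% to 65.8% for the fibrillar share and from 12.4% to 26.3% for the basement membrane share, outside the WTSH ranges of 29.1% to 34.0% and 34.7% to 43.7%. By week 2 the WTTAC shares were 36.8% ± 9.0 and 34.98% ± 9.97, and both overlapped the sham hearts. KOTAC hearts had a fibrillar share of 56.0% ± 5.3 at week 1 and 41.3% ± 3.0 at week 2 (SD, n = 4). In KO hearts the groups still did not overlap at week 2, with fibrillar shares of 37.4% to 43.6% in KOTAC against 27.8% to 31.0% in KOSH, and basement membrane shares of 25.2% to 34.1% against 40.4% to 42.7%. Network chains went from 2.27% ± 0.16 in WTSH to 5.85% ± 0.79 in WTTAC hearts at week 8 (SD, n = 4), without overlap.

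Partner chains of 1 collagen type did not always move in the same proportion. Of 8 ratios tested within hearts in each genotype (16 relations, Benjamini-Hochberg adjusted, two-sided permutation tests with 100000 resamples, 16 hearts against 16), that of Col5a1 to Col5a2 had a median of 0.975 (0.774 to 1.18) in WTSH and 0.567 in WTTAC, and of 0.881 (0.676 to 1.13) in KOSH and 0.511 in KOTAC hearts. The mean log2 ratio differed by -0.80 in WT and -0.84 in KO hearts (permutation test, adjusted p = 3.2e-05 for both, from the smallest p that the resamples can give, 1e-05). Col1a1 rose more than Col1a2, with medians of 0.728 in WTSH and 0.910 in WTTAC hearts (0.25, permutation adjusted p = 0.00068) and 0.796 in KOSH and 0.868 in KOTAC hearts (0.17, adjusted p = 0.0048). The helix of type I holds Col1a1 chains and a Col1a2 chain in unequal number, and these values are of RNA. The ratio of Col4a1 to Col4a2 differed by 0.11 in WT (permutation adjusted p = 0.038) and by 0.08 in KO hearts (adjusted p = 0.058). The WT value did not pass without WTTAC week 8 replicate 2 or without some other single hearts. Those of Col1a1 to Col3a1 (0.00 and -0.06) and Col6a1 to Col6a2 (-0.02 and 0.03) did not differ beyond their spread.

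Across types, Col8a1 gained on Col4a1 by 1.21 in WT and 1.61 in KO hearts (permutation adjusted p = 0.00024 and 3.2e-05), with medians of the ratio of 0.104 in WTSH and 0.228 in WTTAC hearts. Col15a1 gained on Col18a1 by 0.51 and 0.48 (permutation adjusted p = 0.0011 and 0.00068). Col12a1 gained on Col14a1 by 1.88 and 2.12 (permutation adjusted p = 3.2e-05 each), from medians of 0.0676 in WTSH to 0.249 in WTTAC hearts. As Col12a1 was below 1 FPKM in sham hearts, this last difference was 0.11 in WT hearts (permutation adjusted p = 0.42) when 1 was added to each value first. Within single weeks, 4 hearts against 4 allow a smallest exact p of 0.0286, and no weekly ratio passed over the 64 such tests (smallest adjusted p = 0.057).

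**Figure D5:**
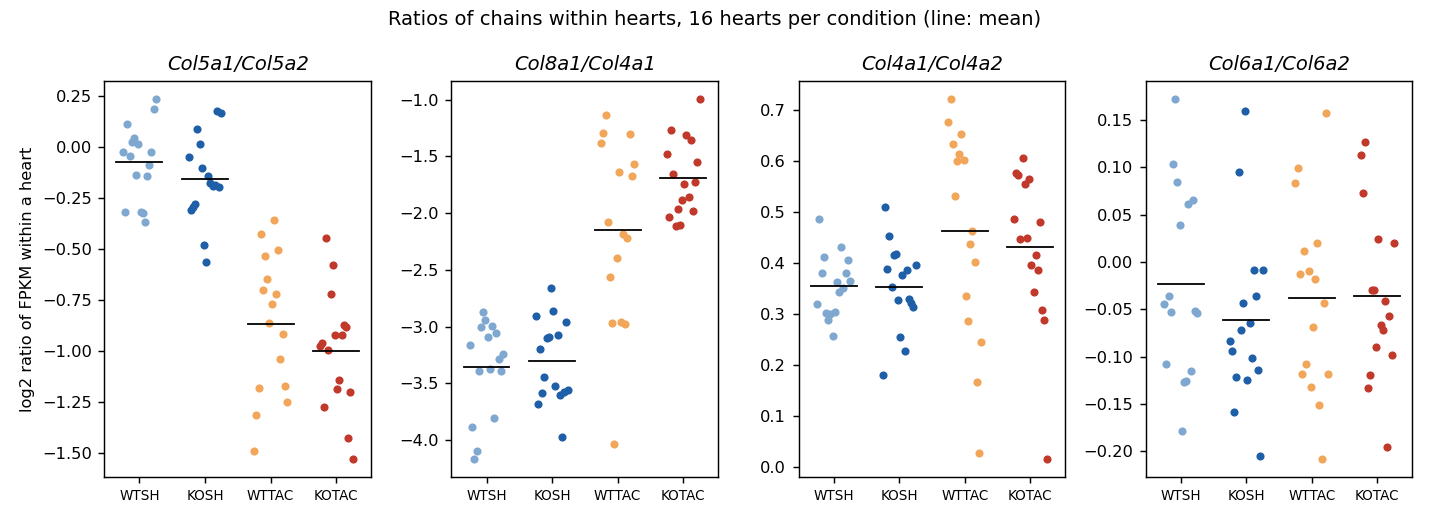
Log2 ratio of FPKM within each heart for 4 pairs of chains (1 point per heart, line at the mean of 16 hearts) in WTSH, KOSH, WTTAC and KOTAC hearts, with a y axis of its own for each pair. Col5a1 to Col5a2 is at medians of 0.975 in WTSH and 0.567 in WTTAC hearts (as a plain ratio), while the mean of Col6a1 to Col6a2 differs by -0.02 in WT and 0.03 in KO hearts.

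Hearts of the same group varied together in their collagen levels. Over 64 hearts, with each value taken as its deviation from the mean of its group, Pearson's r with Col1a1 was 0.983 for Col1a2, 0.957 for Col3a1, 0.959 for Col5a1, 0.958 for Col5a2 and 0.957 for Col6a1. It was lower for Col14a1 (0.905), Col8a1 (0.854), Col15a1 (0.854), Col18a1 (0.816) and Col4a1 (0.718). Spearman's rho ran from 0.715 (Col4a1) to 0.952 (Col1a2), and each of the 10 relations had a permutation p of 1e-05 for both measures, the smallest that 100000 resamples can give (adjusted p = 1e-05). Without the 2 hearts farthest from the median of Col1a1, r ran from 0.664 (Col4a1) to 0.976 (Col1a2). The hearts share a table and its scaling, and chains of the same tissue are not independent measures.

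Genes that fold, cut and bind collagen moved in the same direction. Of 26 tested genes for folding and processing, 25 were higher and Leprel4 lower in each genotype, with a median of 0.72 in WT and 0.79 in KO hearts, beside 59.9% and 62.0% of all genes called. Lox, which oxidises lysines for cross-links, rose by 2.69 and 2.90, Adamts2, which removes the N-propeptide, by 1.61 and 1.81, and Pcolce, which speeds the removal of the C-propeptide, by 1.37 and 1.60. Of 10 receptors listed 7 were tested, and all 7 were higher (median 0.44 in both genotypes). Mrc2, which takes up collagen for breakdown, was at 1.24 and 1.45 and the integrin chain Itga11 at 0.83 and 0.84. Of the 10, 5 had a median FPKM of at least 1 in WTSH and 7 in WTTAC hearts (23 and 24 for folding and processing). Some genes of these 2 lists may thus have met the filter only through TAC hearts. Of 5 proteases tested 4 were higher (Mmp14 by 1.63 and 1.45, Mmp2 by 1.61 and 1.88, Ctsk by 1.48 and 1.73) and Mmp15 was lower (-0.29 and -0.55). Mmp15 was also lower in KOTAC than in WTTAC hearts (-0.35, limma adjusted p = 0.0097). In KOSH vs. WTSH none of these 3 lists had a call.

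Markers of cell types, none of them a collagen, were counted in the same 2 comparisons, in which 48.2% of all genes were higher and 11.7% lower in WT hearts, and 48.0% and 14.0% in KO hearts. Under median-of-ratios scaling these calls were about evenly split, as given above. Fibroblast markers were higher for 12 of 13 genes in each genotype, with a summed FPKM of 661 to 1260 in WTSH and 978.5 to 4802 in WTTAC hearts. Postn, a protein of activated fibroblasts, had a median of 9.63 (6.36 to 18.7) in WTSH, 168 (16.6 to 1067) in WTTAC, 12.2 (6.71 to 23.8) in KOSH and 261 (95.5 to 632) in KOTAC hearts. Endothelial markers were higher for 10 of 11 genes in each genotype (summed FPKM 289 to 433 in WTSH, 331 to 860 in WTTAC hearts). Macrophage markers were higher for 10 of 11 (119.8 to 249 and 127 to 773). Markers of smooth muscle and pericytes were higher for 7 of 11 in WT and 8 of 11 in KO hearts, with 1 lower in each. Of 10 cardiomyocyte markers 1 was higher in each genotype and 4 were lower in WT and 5 in KO hearts. Their summed FPKM had medians of 39350 in WTSH and 35680 in WTTAC hearts, and of 37910 in KOSH and 33110 in KOTAC hearts. The ranges of TAC and sham hearts overlapped in each genotype. Of the others, skeletal muscle markers were higher for 2 and lower for 2 of 5 in each genotype, Schwann cell markers were higher for 1 and lower for 1 of 4 in WT and lower for 3 of 4 in KO hearts, and the 1 mesothelial marker tested was higher in both. Markers of stratified epithelium summed to at most 0.571 in any heart, with Krt15 listed at 0 in all sham hearts, and none was tested. How far these cell types account for the collagen differences was not tested.

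Sham hearts were compared between weeks 1 and 8 only. The summed FPKM of the 43 chains in WTSH hearts was 176.9 to 227.8 at week 2 and 239.1 to 341.6 at week 4, which do not overlap. In KOSH hearts it was 160.2 to 235.0 and 225.2 to 399.3, which overlap. These weeks were picked after the sums were seen, and the difference was not tested. Between weeks 1 and 8 no chain passed by limma over 8 sham hearts each (3 at an unadjusted p under 0.05), where 0.315% of all genes did (0.0659% higher, 0.249% lower) and 1204 were at an unadjusted p under 0.05. The estimate was below 0 for 25 of 26 chains, with -0.67 (SE 0.18, adjusted p = 0.077) for Col5a3, -0.40 for Col4a5 and -0.78 for Col3a1. With only the sham hearts of these weeks in the model, where 1.59% of all genes passed (0.425% higher, 1.16% lower), 6 chains passed, all lower at week 8 (Col1a1, Col3a1, Col4a5, Col5a1, Col5a2 and Col5a3).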

How the data were processed

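RNA from 64 mouse hearts was sequenced by the authors as paired-end reads of 50 bases from TruSeq libraries, which do not mark strand. Per the paper's methods, reads were mapped to mm9 with TopHat, those with a single location and fewer than 2 mismatches were kept, and Cufflinks on Ensembl release 66 gave FPKM per gene, summed over transcripts, as deposited by the authors on a linear scale. Their versions are not given in the sources used here. FPKM keep no read counts, so depth is unknown, and the count test of the study's methods was replaced by limma 3.58.1 (R 4.3.3) with its trend option. All 64 columns matched a heart.

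Values were tested as log2(FPKM + 1) for 13653 genes with FPKM of 1 or more in 4 or more libraries, with a mean per group and Benjamini-Hochberg adjustment, and a threshold of 0.05. A condition was compared by averaging its weekly differences, and also week by week. Ratios were tested by permutation (Python 3.11.15, numpy 2.4.6, pandas 2.3.3, scipy 1.17.1). The procedure was tested on simulated data. The sources give separate hearts, and p-values measure the spread between them. Replicate numbers did not pair hearts, so the block was an alternative, beside other pseudocounts, filters, scalings and leaving out hearts.

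Group levels and tests cover every chain with a group mean of at least 1 or enough libraries over the filter. Col7a1, Col28a1 and the transmembrane chains are also given from a run without the filter. Single-heart values are given for the 2 chains of each class with the highest mean FPKM and for the chains with the 5 largest absolute moderated t of a contrast. Col1a1 was added, and Col4a4, Leprel4 and Mmp15 were named, after their values were seen. Other genes come from lists, given as counts with up to 3 members of largest moderated t. The members and lists were chosen with earlier results of these data known. Sequences come from GENCODE models on mm9.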

Additional observations from a re-analysis of the deposited data

Results flagged for a closer look

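In each of 240 groups of 4 hearts (15 chains in 16 groups), the gap between an extreme heart and its nearest neighbour was divided by the range of the group. In 19 groups the quotient was above 0.829, where chance gives about 1 in 20 groups. Of these 19, 8 were KOSH, 5 WTTAC, 3 WTSH and 3 KOTAC groups. Replicate 1 of KOSH week 4 stood above its group for 4 chains, with quotients of 0.934 for Col3a1 (48.6 FPKM against 30.3 to 31.6), 0.932 for Col8a1 (12.1 against 4.35 to 4.88), 0.839 for Col1a2 and 0.843 for Col5a2. Replicate 1 of KOSH week 1 stood below its group for Col4a1 (0.908, at 34.4 against 63.0 to 65.9) and Col4a2 (0.895), and replicate 3 of WTTAC week 2 did so for Col4a1 (0.869, at 88.6 against 190.8 to 206) and Col4a2 (0.885). Replicate 1 of WTSH week 2 was far from its group for Col3a1 (0.964) and Col5a1 (0.866).

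The other quotients were 0.976 for Col6a1 (WTSH week 8, replicate 4), 0.89 for Col16a1 (KOSH week 2, replicate 1) and 0.899 for Col15a1 (KOTAC week 2, replicate 4, at 139.7 against 86.3 to 91.7). For Col18a1 they were 0.987 (KOSH week 2, replicate 2), 0.878 (WTTAC week 1, replicate 4) and 0.853 (WTTAC week 4, replicate 3). Col8a1 had 0.859 (KOTAC week 2, replicate 3), Col8a2 had 0.914 (WTTAC week 2, replicate 4) and Col5a2 had 0.921 (KOTAC week 8, replicate 2). The TAC hearts of week 2 flagged in this section, replicates 3 and 4 of WTTAC and of KOTAC, are the 4 libraries with a length trend. The part of that trend in their quotients was not tested.

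The TAC effect differed between weeks by limma's test of the difference. From week 1 to week 2 it moved by -1.32 for Col1a1, -1.68 for Col1a2, -0.73 for Col4a5, -0.85 for Col5a1, -1.05 for Col5a2 and -0.40 for Col6a6. It moved by -1.23 for Col8a1, -1.59 for Col8a2, -1.48 for Col9a2, -1.66 for Col11a1, -1.10 for Col12a1, -1.24 for Col14a1, -0.97 for Col16a1 and -0.81 for Col22a1. From week 2 to week 4 it moved by -1.53 for Col3a1, -1.34 for Col4a1, -1.14 for Col4a2, -0.94 for Col5a1, -1.08 for Col5a2 and -2.0 for Col5a3. It moved by -0.93 for Col6a1, -1.09 for Col6a2, -1.57 for Col6a3, -1.49 for Col15a1 and -0.76 for Col18a1.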

How the results depend on the processing

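No chain result that passed in the main fit reversed its direction in an alternative run, or in the least favourable omission of a single heart. Results that did not pass were not checked for direction. The counts of chains for the mean TAC effect were 26 in both genotypes with any single heart left out. Of 231 results for named chains, 219 kept their side of the threshold without the 4 week 2 libraries with a length trend, 221 under median-of-ratios scaling, 220 under quantile normalization and 196 in the least favourable omission of a single heart. In KOTAC vs. WTTAC, where no chain passed, 1 passed with a pseudocount of 0.1, 1 under quantile normalization and 2 with the length trend removed, and 0 to 2 without single hearts. In WT hearts at week 4 the count of 0 became 1 under median-of-ratios scaling, 2 under quantile normalization, 1 with the length trend removed, 1 without the 4 week 2 libraries, 15 without 2 WTTAC hearts near sham and 19 without 3 such hearts, and 0 to 14 without single hearts. The omission of 3 hearts was chosen after seeing the data. At week 4 in KO hearts the count ran from 11 to 20, and at week 8 in WT hearts from 9 to 19. For the change from week 1 to week 2 the count of 14 became 7 with the length trend removed and 7 with only the hearts compared, and 8 to 16 without single hearts. For sham hearts, week 8 vs. week 1, the count of 0 became 1 with a pseudocount of 0.1, 2 without the 4 week 2 libraries, 1 without the 2 or the 3 WTTAC hearts, 6 with only the hearts compared, and 0 to 1 without single hearts. The cause of these shifts was not tested.

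The difference in the Col4a1/Col4a2 ratio in WT hearts was 0.1041 without the 4 week 2 libraries (permutation adjusted p = 0.053), 0.09866 without 2 WTTAC hearts near sham (adjusted p = 0.063) and 0.09084 to 0.122 without single hearts. In KO hearts it was 0.08201 with 1 added to each FPKM (permutation adjusted p = 0.047) and 0.06039 to 0.09897 without single hearts. That of Col12a1/Col14a1 in WT hearts was 0.1098 with 1 added.

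With the replicate number as a block, the count of chains in KOTAC vs. WTTAC was 1 (Col6a6, limma adjusted p = 0.047) and that in WT hearts at week 4 was 1, and no other count of chains moved by over 1.5 times. Hearts of the same number correlated at a median of 0.0148, with 24 of 77 pairs over 0.1, so the numbers do not pair hearts. Depth is unknown, so counting error could not be given for chains near the filter.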
